A study of Mus musculus with 36 samples.

Results

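The genes described here are 10 regulators and markers of epithelial-mesenchymal transition (EMT), out of 55358 genes in the counts of mouse keratinocytes with and without plakophilin 4 (PKP4), a protein of adherens junctions. They are the transcription factors Snai1, Snai2, Zeb1, Zeb2 and Twist1, the mesenchymal markers Vim, Cdh2 and Fn1, and the epithelial splicing regulators Esrp1 and Esrp2, and all 10 were found by gene symbol. Snai1 was selected on its measured counts, which were far higher in PKP4-KO cells than in WT, so its levels between genotypes are given as a description with no test. RNA sequencing of poly(A) RNA covered 36 libraries, 3 per group, from keratinocytes of 3 genotypes (WT, PKP4-KO, Rescue) kept for 24 h or 72 h in low calcium medium (LCM) or in high calcium medium (HCM), which is LCM with added calcium and induces keratinocyte differentiation. WT cells were Pkp4+/+ and PKP4-KO cells Pkp4-/-, both isolated from newborn pups of 1 mouse strain, C57BL/6N-Pkp4tm1b(EUCOMM)Wtsi/JMmucd, in which Cre had removed exon 9 and FLPe the lacZ reporter before backcrossing to C57BL/6J. Rescue cells were a stable line made from PKP4-KO keratinocytes by lentiviral transfer of human PKP4 tagged with EGFP and puromycin selection, so that they carry the same deletion as the PKP4-KO cells and differ from them by transduction and selection as well as by the transgene. Each group was described as 3 biological replicates, but the number of pups or isolations behind them is not given in the sources used here, and p-values therefore measure the spread between these libraries.

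EMT is the process by which epithelial cells give up cell-cell junctions and polarity and take on a migratory, mesenchymal state. Transcription factors of the Snail, Zeb and Twist families drive it by repressing epithelial genes, above all E-cadherin (Cdh1), and by favouring mesenchymal genes such as N-cadherin, vimentin and fibronectin. In epidermis, Snai2 is the Snail family member that basal keratinocytes normally express, whereas Esrp1 and Esrp2 set the epithelial pattern of alternative splicing and are lost in many cells that undergo EMT.

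Library totals lay between 13602728 and 22467187 counts. All 36 libraries were closest to a group of their own genotype, and 26 of them to their own group, the others lying closer to another medium or time. Pkp4 itself had 326 to 1443 counts in WT libraries, 44 to 232 in PKP4-KO and 101 to 273 in Rescue, whereas the added GFP-PKP4 sequence had 1902 to 15325 counts in Rescue and at most 113 elsewhere. All 9 keratinocyte markers, among them Krt5 and Krt14, were detected in each genotype. The 3 PKP4-KO libraries at 72 h in HCM stood apart, with TMM factors (the scaling of library size that edgeR derives from the bulk of genes) of 0.481 to 0.546 against 0.705 to 1.39 in the others, and leaving these factors out moved the median of all genes there from -0.07 to -0.83 in log2 against WT. Levels below are TMM-scaled CPM, read counts set to a common library size, and p-values were computed with the quasi-likelihood test of edgeR and adjusted by the Benjamini-Hochberg method over all 15114 genes tested, with calls at adjusted p below 0.05.

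The promoters of the 3 factors with the clearest signal and of E-cadherin, the best known Snail target, are shown as the bases upstream of the annotated start in the GRCm39 genome with its GENCODE annotation. Capitals mark CACCTG or CAGGTG, the same E-box read on either strand, to which Snail family proteins bind. The stretch of Snai1 is chr2:167379863-167380112, that of Snai2 chr16:14523175-14523424, that of Twist1 chr12:34007395-34007644 and that of Cdh1 chr8:107329733-107329940, each on the plus strand.
Snai1: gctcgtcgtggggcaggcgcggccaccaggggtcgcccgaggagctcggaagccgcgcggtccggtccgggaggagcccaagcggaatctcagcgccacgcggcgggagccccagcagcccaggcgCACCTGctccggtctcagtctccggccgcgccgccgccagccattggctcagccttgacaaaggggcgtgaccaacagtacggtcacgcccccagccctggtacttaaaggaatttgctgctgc
Snai2: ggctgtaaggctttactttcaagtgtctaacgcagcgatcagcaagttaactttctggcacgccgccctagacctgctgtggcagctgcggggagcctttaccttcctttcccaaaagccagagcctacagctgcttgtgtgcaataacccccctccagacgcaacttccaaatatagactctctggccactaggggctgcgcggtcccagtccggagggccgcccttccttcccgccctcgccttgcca
Twist1: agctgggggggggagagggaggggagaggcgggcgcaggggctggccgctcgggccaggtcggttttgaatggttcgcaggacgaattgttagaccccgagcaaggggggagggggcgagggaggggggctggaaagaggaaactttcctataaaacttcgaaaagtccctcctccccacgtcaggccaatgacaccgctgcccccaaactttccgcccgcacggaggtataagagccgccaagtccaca
Cdh1: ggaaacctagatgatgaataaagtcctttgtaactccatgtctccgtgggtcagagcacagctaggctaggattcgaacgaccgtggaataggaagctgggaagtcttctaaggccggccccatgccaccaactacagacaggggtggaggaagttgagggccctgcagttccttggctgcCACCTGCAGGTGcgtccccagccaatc
The Snai1 promoter held 1 such E-box, which began 124 bases before the start (-124), and the Cdh1 stretch held 2 adjoining ones, at -69 and -63 counted from the start. The printed Cdh1 stretch stops short of the start, and its full window of 250 bases held 3 such E-boxes. The Snai2 and Twist1 promoters held none. This E-box was present in 16.7% of the 15073 promoters of 250 bases, and a match of letters is not a binding site. The Snai1 promoter was also rich in GC, at 70.8% against a median of 55.6% over all promoters.

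The 10 genes differed widely in level. Per kb of exon length, the median over all 36 libraries was 22.4 CPM for Snai2, 19.6 for Esrp1 and 14.0 for Esrp2. Twist1 followed at 3.22 CPM per kb. Fn1 lay at 0.357 CPM per kb, Snai1 at 0.127, Vim at 0.113, Cdh2 at 0.0134 and Zeb2 at 0.0045, and Zeb1 had a median of 0. The ranges of Snai2, Esrp1 and Esrp2 over libraries overlapped, as did those of Vim and Snai1 outside PKP4-KO. Of the 10, 8 passed the filter on low counts, and Zeb1 and Cdh2 did not. Snai1 passed only through its PKP4-KO libraries. Zeb2 passed only through single WT and Rescue libraries, at 10 to 17 counts, and had at most 3 counts in every PKP4-KO library.

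**Figure D1:**
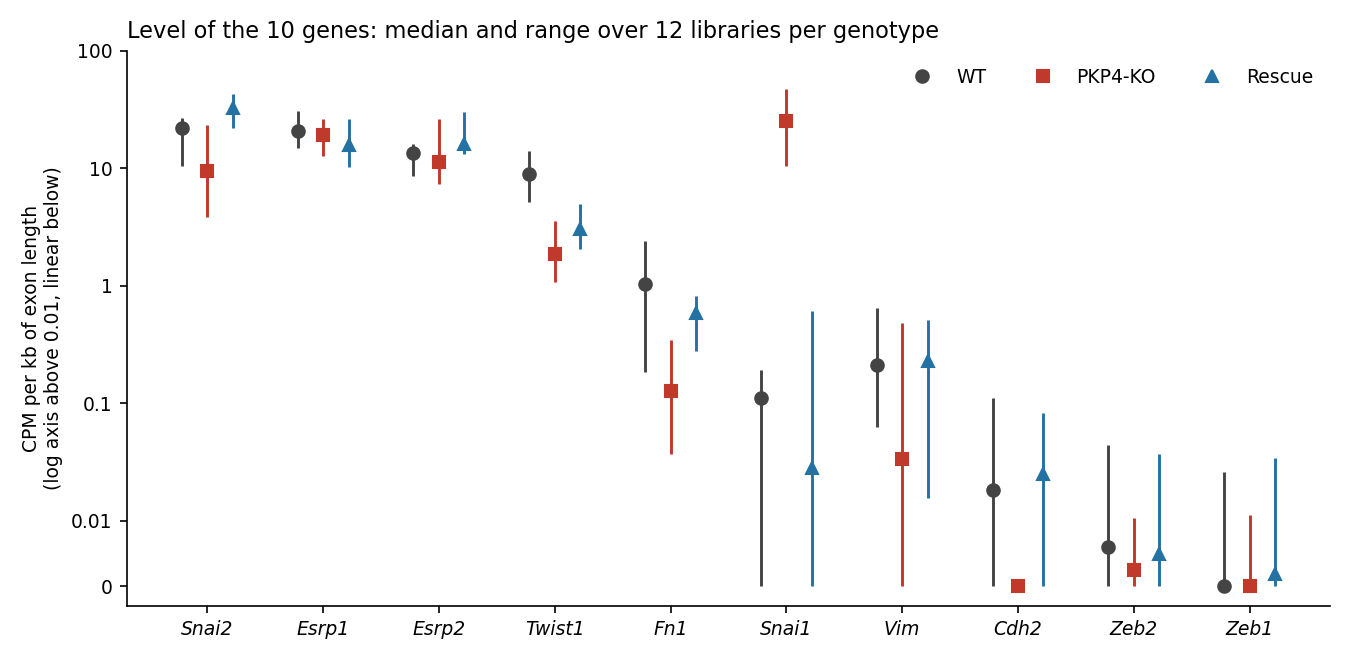
Level of each of the 10 genes as CPM per kb of exon length on a log axis that is linear below 0.01. Symbols are medians and bars the range over the 12 libraries of WT (circles), PKP4-KO (squares) and Rescue (triangles). Snai1 stands at 25.0 in PKP4-KO against 0.11 in WT and 0.0281 in Rescue, whereas Zeb1, Zeb2 and Cdh2 lie near 0 in all 3 genotypes.

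Snai1, the founding Snail family repressor of E-cadherin (chr2:167380113-167384734, plus strand), was abundant in the PKP4-KO libraries. After 24 h in LCM the 3 PKP4-KO libraries had 58.5, 56.8 and 74.8 CPM, and after 24 h in HCM 43.8, 41.6 and 76.9 CPM. After 72 h they had 23.2, 39.6 and 27.0 CPM in LCM and 27.1, 27.5 and 16.9 CPM in HCM. The lowest PKP4-KO library held 149 counts, whereas WT libraries held 0 to 6 and Rescue libraries 0 to 15, so that the groups did not overlap in any medium or at any time. Snai1 overlaps Gm75792 on the opposite strand, which is not among the counted genes. Whether the counting used the strand is not given in the sources used here.

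As pooled counts corrected for library size, Snai1 in PKP4-KO exceeded WT 591-fold after 24 h in LCM (95% exact counting interval 271 to 1610) and 206-fold after 24 h in HCM (120 to 387). After 72 h the ratio was 242 in LCM (123 to 562) and 170 in HCM (77.8 to 466). These intervals cover counting error only, and since the WT counts were a handful per group, the order of the 4 ratios is uncertain. All 6 WT counts after 24 h in LCM came from replicate 3, and the log2 difference there ran from 8.54 to 13.16 when 1 library was left out, the highest value being that without this replicate, where WT was at 0 and the fit gives no bound. Against Rescue, the PKP4-KO level was 219-fold higher after 24 h in LCM (138 to 370), 316-fold after 24 h in HCM (166 to 692) and 576-fold after 72 h in LCM (197 to 2800). Single Rescue libraries held 15 of 18 counts (replicate 3), 7 of 9 (replicate 2) and 3 of 3 (replicate 1), and without them the log2 difference of Rescue from PKP4-KO moved from -7.63 to -9.78, from -8.34 to -9.80 and from -9.06 to -12.06, the last of these again against a group at 0. After 72 h in HCM no Rescue library had a Snai1 count, so PKP4-KO was at least 532-fold higher, taking 3 counts over the Rescue group as the limit that 0 allows. Rescue and WT libraries overlapped in Snai1 in 3 of the 4 conditions, the exception being 72 h in HCM, where WT had 1, 3 and 2 counts.

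Within PKP4-KO, Snai1 was lower at 72 h than at 24 h. Snai1 was chosen, and passed the filter, through these same libraries, though not through their difference between times. The p-values that follow are therefore given as a description. In HCM its mean went from 54.1 ± 19.8 to 23.8 ± 5.98 CPM (SD, n = 3), a log2 change of -1.18 ± 0.45 (SE, adjusted p = 0.0266 in the edgeR quasi-likelihood test). In LCM it went from 63.4 ± 9.94 to 30.0 ± 8.56 CPM, a change of -1.08 that missed the threshold (adjusted p = 0.0702). In both media all 3 libraries at 72 h lay below all 3 at 24 h. The call in HCM was lost without replicate 3 of PKP4-KO at 72 h or at 24 h (adjusted p up to 0.127) and with DESeq2 (adjusted p = 0.0829). Calcium itself gave log2 differences of -0.23 at 24 h (adjusted p = 0.908) and -0.33 at 72 h (adjusted p = 0.589) in the edgeR quasi-likelihood test, and the libraries of both media overlapped.

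**Figure D2:**
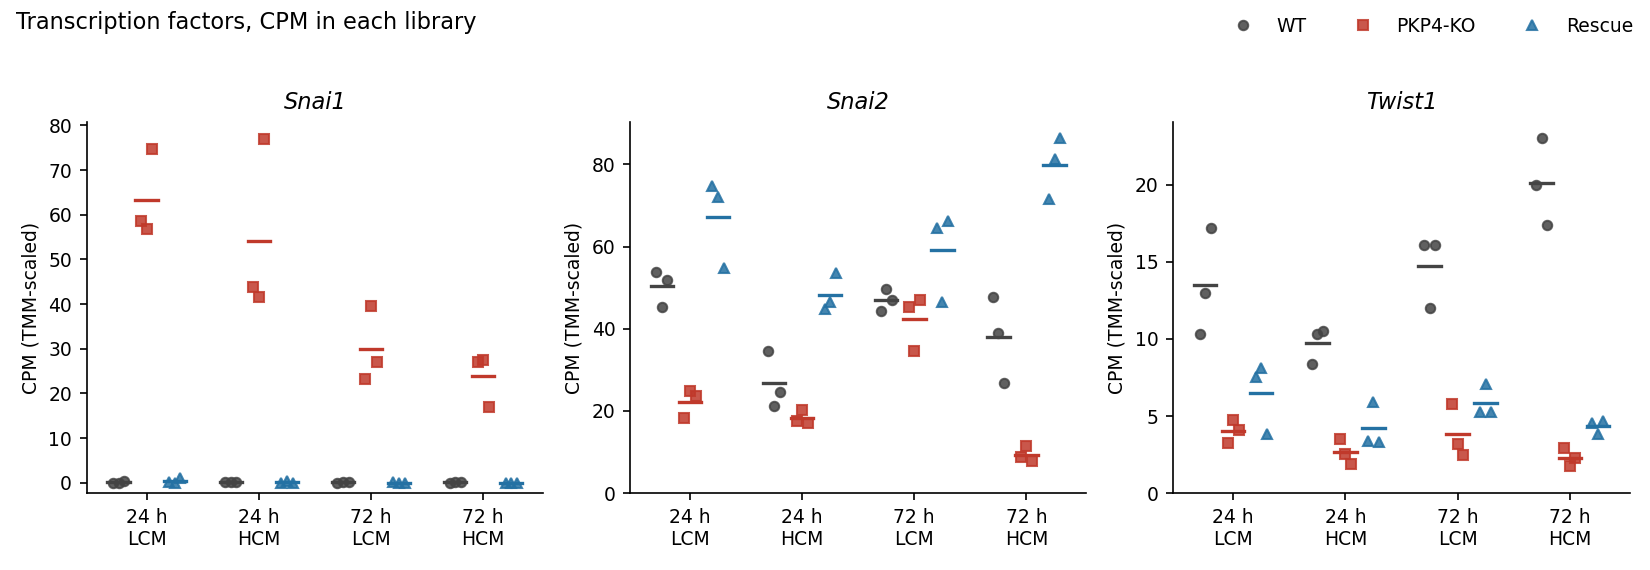
CPM of Snai1, Snai2 and Twist1 in each library, by time and medium. Points are libraries of WT (circles), PKP4-KO (squares) and Rescue (triangles), and bars are means of 3. Snai1 is at 16.9 to 76.9 CPM in PKP4-KO and at most 0.982 in the other genotypes, Twist1 is highest in WT in every condition, and Snai2 is lowest in PKP4-KO at 72 h in HCM, at 7.84 to 11.6 CPM.

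Genes next to Snai1 differed less between genotypes than Snai1 itself. Spata2 and Rnf114, its nearest tested neighbours upstream, had log2 differences of 1.07 and 0.42 between PKP4-KO and WT after 24 h in HCM. B4galt5, an enzyme of glycosphingolipid synthesis, was lower (-2.05), and after 72 h in HCM its difference was -4.65. Ptgis was higher by 4.12 after 24 h in LCM (adjusted p = 0.00721 in the edgeR quasi-likelihood test), and its differences in the other conditions did not pass. Over the 90 tested genes within 5 Mb of Snai1, the median log2 difference was 0.51 after 24 h in HCM, 0.39 after 72 h in HCM, 0.56 after 24 h in LCM and 0.45 after 72 h in LCM, while the median of all genes was between -0.07 and 0.02. For the other 9 members the same median at 24 h in HCM ran from -0.66 around Cdh2 to 0.24 around Esrp2. The 3 genes whose group means followed Snai1 most closely over the 12 groups were Ttc4 (Pearson r = 0.996, Spearman rho = 0.874), Yipf1 (r = 0.994, rho = 0.958) and Prpf38a (r = 0.991, rho = 0.846), which all lie on chromosome 4 (chr4:106518412-106536156, chr4:107149038-107217021 and chr4:108418705-108436565), and these group means share libraries and their scaling. Snai1 means were at most 0.371 CPM in WT and Rescue groups and at least 23.8 in PKP4-KO groups. These r values therefore mainly reflect the difference by which Snai1 was chosen.

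Of the other 9 members, 7 could be tested in each comparison. Between PKP4-KO and WT, 17 of 28 tests on them passed, 2 higher and 15 lower, beside 45% of all tests over all genes. In the separate conditions 4 of 7 passed after 24 h in LCM, all lower, beside 40.2% of all genes (19.7% higher and 20.6% lower). In HCM after 24 h 6 of 7 passed, all lower (42.8% of all genes, 22.2% lower), after 72 h in LCM 3 of 7 (45.1%) and after 72 h in HCM 4 of 7, 3 lower and 1 higher (51.8%, with 29.9% lower and 21.9% higher). Since the set was proposed from this contrast, nothing is read from these shares, and the comparisons with WT, PKP4-KO and Rescue share libraries with each other. Without the 3 PKP4-KO libraries at 72 h in HCM, that condition could not be tested. The remaining conditions then gave 12 calls, against 4, 6 and 3 with these libraries (24 h LCM, 24 h HCM and 72 h LCM, each of 7 tests).

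Snai2, the Snail family member of normal basal keratinocytes (chr16:14523425-14527252, plus strand), was lower in PKP4-KO than in WT in 3 of 4 conditions. Its levels after 24 h in LCM were 53.9, 45.4 and 51.8 CPM in WT, 18.2, 24.8 and 23.7 in PKP4-KO, and Rescue had 74.8, 72.1 and 54.7. PKP4-KO lay below every library of the other genotypes there, with a log2 difference from WT of -1.18 ± 0.20 (SE, adjusted p = 2.05e-05 in the edgeR quasi-likelihood test). Its levels after 72 h in HCM were 47.7, 39.1 and 26.9 CPM in WT, 8.76, 11.6 and 7.84 in PKP4-KO, and Rescue had 71.6, 81.3 and 86.4. The 3 genotypes did not overlap, and the difference from WT was -2.02 ± 0.21 (adjusted p = 6.98e-09 in the edgeR quasi-likelihood test), which left 24.8% of the WT level.

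In the other 2 conditions the Snai2 difference was smaller or absent from the calls. WT libraries after 24 h in HCM had 34.7, 21.1 and 24.5 CPM and PKP4-KO libraries 17.5, 20.2 and 17.1. The libraries did not overlap, and the log2 difference was -0.55 ± 0.20 (adjusted p = 0.024 in the edgeR quasi-likelihood test). This call was lost without replicate 1 or 3 of PKP4-KO or replicate 1 of WT in that condition (adjusted p up to 0.243) and without TMM factors (adjusted p = 0.177). WT libraries after 72 h in LCM had 44.3, 49.8 and 47.0 CPM and PKP4-KO 45.2, 34.6 and 47.1, which overlapped (-0.15 ± 0.19, adjusted p = 0.532 in the edgeR quasi-likelihood test).

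Rescue exceeded PKP4-KO in Snai2 in all 4 conditions. The log2 difference was 1.59 ± 0.20 after 24 h in LCM (adjusted p = 2.42e-07) and 1.4 ± 0.20 after 24 h in HCM (adjusted p = 1.3e-06), both in the edgeR quasi-likelihood test. The difference in HCM after 72 h reached 3.09 ± 0.22 (adjusted p = 2.51e-12), an 8.5-fold difference. After 72 h in LCM, where Rescue had 64.6, 46.5 and 66.2 CPM and overlapped PKP4-KO, it was 0.48 ± 0.19 (adjusted p = 0.0464 in the edgeR quasi-likelihood test), and that call was lost in 4 of 6 fits without 1 library (replicates 1 or 3 of Rescue, 1 or 2 of PKP4-KO, adjusted p up to 0.207) and with the replicate number as a block (adjusted p = 0.0541). Rescue also exceeded WT in HCM, by 0.85 ± 0.20 at 24 h (adjusted p = 0.00175) and 1.07 ± 0.20 at 72 h (adjusted p = 0.000105), while in LCM differences of 0.42 and 0.33 did not pass.

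Twist1, a basic helix-loop-helix factor that drives EMT in development and cancer (chr12:34007645-34009828, plus strand), was lower in PKP4-KO than in WT in all 4 conditions. Twist1 had, after 24 h in LCM, 10.3, 13 and 17.2 CPM in WT against 3.24, 4.72 and 4.12 in PKP4-KO, and after 24 h in HCM 8.35, 10.3 and 10.5 against 3.5, 2.51 and 1.92. After 72 h it had 16.1, 12 and 16.1 CPM against 5.79, 3.19 and 2.45 in LCM, and 20, 23 and 17.4 against 2.92, 1.74 and 2.27 in HCM. No PKP4-KO library reached the WT libraries of its condition. The log2 differences were -1.74 ± 0.30 and -1.86 ± 0.30 at 24 h and -1.95 ± 0.30 and -3.11 ± 0.33 at 72 h, in LCM and HCM respectively (adjusted p between 2.71e-05 and 1.03e-08 in the edgeR quasi-likelihood test). None of these 4 calls was lost when any 1 library was left out.

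Rescue libraries stayed well below WT in Twist1. They had 7.51, 8.11 and 3.86 CPM after 24 h in LCM and 3.41, 5.92 and 3.33 after 24 h in HCM. After 72 h they had 5.24, 7.07 and 5.25 CPM in LCM and 4.54, 3.82 and 4.71 in HCM. Every Rescue library was below every WT library of its condition, and the log2 difference from WT was -1.05 ± 0.29, -1.20 ± 0.29, -1.33 ± 0.29 and -2.21 ± 0.30 in the same order (adjusted p at most 0.00759 in the edgeR quasi-likelihood test). The first of these was lost without replicate 3 of Rescue or of WT at 24 h in LCM (adjusted p up to 0.0643). Against PKP4-KO, Twist1 was higher in Rescue only after 72 h in HCM among the calls (0.90 ± 0.33, adjusted p = 0.0173), and not without replicate 2 of that PKP4-KO group (adjusted p = 0.0798), while the other 3 differences of 0.61 to 0.69 did not pass (adjusted p 0.0719 to 0.101).

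Fn1, which encodes the matrix glycoprotein fibronectin (chr1:71624673-71692419, minus strand), was lower in PKP4-KO than in both other genotypes in all 4 conditions. Fn1 had, after 24 h in LCM, 20.7, 28.1 and 26.1 CPM in WT, 1.27, 1.71 and 4.03 in PKP4-KO, and Rescue had 9.42, 9.6 and 7.92. In HCM at that time it had 22, 14.8 and 19.3 CPM in WT, 1.96, 2.05 and 2.29 in PKP4-KO, and Rescue had 7.68, 6.93 and 7.45. At 24 h the 3 genotypes therefore formed 3 separate levels in both media, with Rescue between the others.

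Fn1 had, after 72 h in LCM, 8.53, 9.59 and 6.87 CPM in WT, 0.914, 1.17 and 1.9 in PKP4-KO, and Rescue had 6.74, 3.83 and 3.78. In HCM at that time it had 4.31, 4.87 and 2.15 CPM in WT, 0.635, 0.436 and 1.02 in PKP4-KO, and Rescue had 3.61, 3.27 and 4.04. PKP4-KO stayed below both other genotypes, and its 3 libraries of 72 h in HCM held only 5, 3 and 9 Fn1 counts. The log2 difference of PKP4-KO from WT was -3.39 ± 0.33 and -3.16 ± 0.33 at 24 h in LCM and HCM, and -2.62 ± 0.34 and -2.42 ± 0.41 at 72 h (adjusted p between 2.17e-05 and 2.69e-09 in the edgeR quasi-likelihood test), and no call was lost when any 1 library was left out.

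Rescue exceeded PKP4-KO in Fn1 in all 4 conditions, by 1.92 ± 0.32, 1.81 ± 0.32, 1.83 ± 0.34 and 2.34 ± 0.41 in log2 in the same order (adjusted p at most 7.69e-05 in the edgeR quasi-likelihood test). It remained below WT at 24 h, at 36% of the WT mean in LCM and 39.3% in HCM (log2 differences -1.47 ± 0.30 and -1.35 ± 0.30, adjusted p = 0.000505 and 0.00145). At 72 h the difference from WT was -0.08 ± 0.32 in HCM (adjusted p = 0.865). In LCM it was -0.79 ± 0.31 (adjusted p = 0.0488), a call lost without replicates 2 or 3 of Rescue or 1 or 2 of WT in that condition (adjusted p up to 0.18), with a replicate block (adjusted p = 0.0567) and without TMM factors (adjusted p = 0.142).

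The remaining mesenchymal genes were barely detected. Vim, the gene of the intermediate filament vimentin (chr2:13578738-13587639, plus strand), had 6 to 58 counts in WT libraries, 0 to 20 in PKP4-KO and 1 to 37 in Rescue. Vim had, after 24 h in LCM, 58, 20 and 35 counts in WT, 2, 3 and 6 in PKP4-KO, and Rescue had 28, 30 and 37. In HCM it had 29, 29 and 27 counts in WT, 2, 12 and 5 in PKP4-KO, and Rescue had 27, 28 and 10. PKP4-KO lay below WT without overlap in both media at 24 h.

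The log2 difference of Vim from WT was -3.33 ± 0.96 in LCM (adjusted p = 0.00646) and -2.33 ± 0.90 in HCM (adjusted p = 0.0379 in the edgeR quasi-likelihood test). The call in HCM was lost in 5 of 6 fits without 1 library, all but replicate 2 of PKP4-KO (adjusted p up to 0.15). At 72 h the replicates themselves disagreed, since PKP4-KO had 0, 2 and 17 counts in LCM and 1, 0 and 20 in HCM, and no difference from WT passed. Rescue exceeded PKP4-KO among the calls only after 24 h in LCM (3.02 ± 0.96, adjusted p = 0.0146), which was lost without replicate 1 or 2 of PKP4-KO (adjusted p up to 0.0591).

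Cdh2, which encodes N-cadherin, the cadherin that replaces E-cadherin in mesenchymal cells, had no count in any of the 12 PKP4-KO libraries. WT libraries had 0 to 17 counts and Rescue libraries 0 to 14. At 24 h WT had 17, 2 and 1 counts in LCM and 6, 4 and 6 in HCM. All WT libraries at 24 h were above PKP4-KO. Over the groups the ratio was 6.69 in LCM and 5.93 in HCM, taking 3 counts as the limit that 0 allows. The ratio in LCM rests on replicate 1 of WT, with 17 of the 20 counts, and the other WT libraries there lay below that limit. An exact two-sided permutation test gave p = 0.1 for either medium, the smallest p that 3 against 3 libraries allow (adjusted p = 0.467 over 42 such tests of Cdh2 and Zeb1).

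Zeb1 and Zeb2, zinc-finger repressors of epithelial genes, were close to the detection limit. Zeb1 had 0 to 7 counts, and 25 of 36 libraries had none. Zeb2 (chr2:44873644-45007464, minus strand) had 0 to 17 counts, and 11 of 36 libraries had none. No Zeb2 difference between PKP4-KO and WT passed the test, and at this depth differences of a few counts were not detectable. Between Rescue and WT, Zeb2 passed as lower after 24 h in LCM (2 against 23 counts over the groups, adjusted p = 0.0458) and as higher after 72 h in HCM (27 against 1, adjusted p = 0.0367). Single libraries held 17 of the 23 counts (replicate 1 of WT) and 16 of the 27 (replicate 1 of Rescue), and each call was lost in 4 of 6 fits without 1 library (adjusted p up to 0.344 and 0.139). These were the fits without replicate 2 or 3 of Rescue or 1 or 3 of WT at 24 h in LCM, and without replicate 1 or 2 of Rescue or 1 or 3 of WT at 72 h in HCM. With DESeq2 the first had adjusted p = 0.0562. Replicate 1 of WT and replicate 1 of Rescue were also among the few libraries through which Zeb2 passed the filter. The p-values of Zeb2 are therefore given as a description.

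Replicate 1 of WT at 24 h in LCM had the most Vim (58), Cdh2 (17) and Zeb2 (17) counts of all 36 libraries, the last of these together with replicate 1 of WT at 24 h in HCM, and it also had the highest sum of fibroblast markers in WT. The 8 fibroblast markers summed to 0.153 to 9.62 CPM in WT, with Lum at 0 throughout, 0 to 4.65 in PKP4-KO and 0.221 to 11.6 in Rescue. The sum of 11.6 was in replicate 2 of Rescue at 24 h in HCM. That library had 28 Vim, 0 Cdh2, 0 Zeb1 and 3 Zeb2 counts. In WT at 24 h in HCM the sum was at most 1.55 CPM. The part of fibroblasts in the differences was not tested, and in bulk RNA fewer cells of a type and less RNA per cell cannot be told apart.

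**Figure D3:**
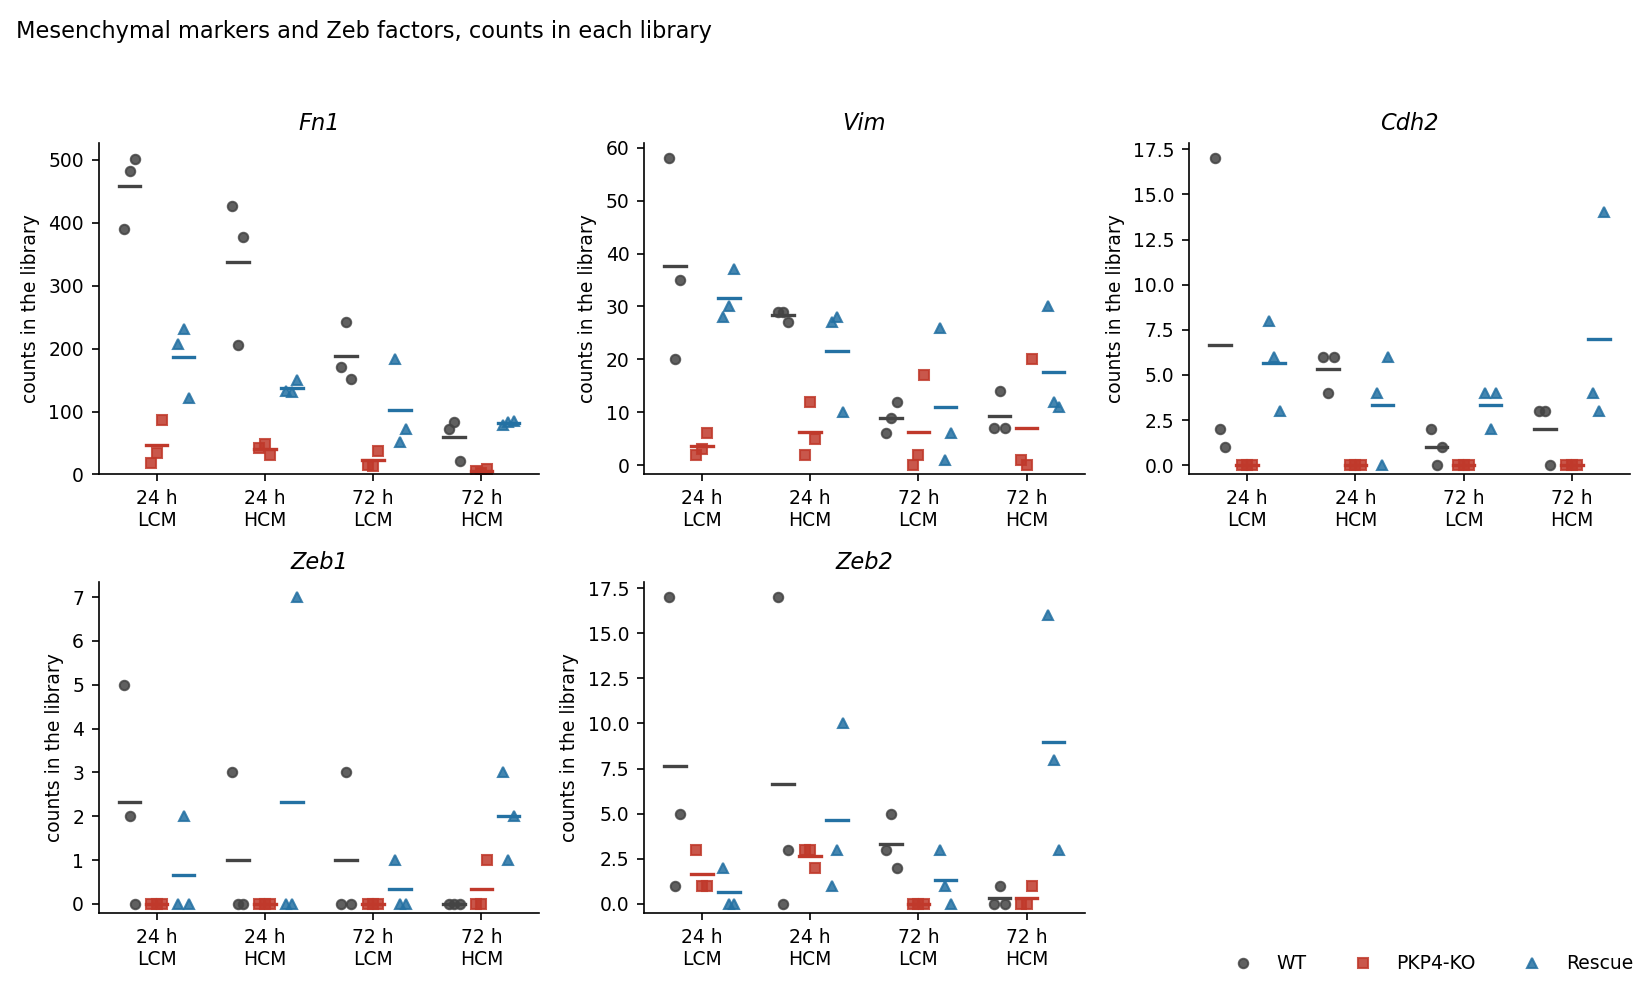
Counts of Fn1, Vim, Cdh2, Zeb1 and Zeb2 in each library, not normalised, by time and medium. Points are libraries of WT (circles), PKP4-KO (squares) and Rescue (triangles), and bars are means of 3. Cdh2 is at 0 in all 12 PKP4-KO libraries, Fn1 reaches 502 counts in WT and at most 86 in PKP4-KO, and single libraries carry the highest Zeb1 and Zeb2 counts, up to 7 and 17.

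Esrp1, an epithelial regulator of alternative splicing (chr4:11331933-11386875, minus strand), was expressed in every genotype, at 64.2 to 195 CPM. Esrp1 had, after 24 h in HCM, 195, 124 and 166 CPM in WT and 108, 117 and 80.4 in PKP4-KO. The libraries did not overlap, and the log2 difference was -0.67 ± 0.19 (adjusted p = 0.00455 in the edgeR quasi-likelihood test), although without TMM factors it was not called (adjusted p = 0.0906). In the other conditions differences of -0.36, -0.30 and 0.21 did not pass, the last of these, after 72 h in HCM, turning to -0.59 without TMM factors. Rescue lay below WT at 24 h, by -0.61 ± 0.19 in LCM (adjusted p = 0.0162) and -0.63 ± 0.19 in HCM (adjusted p = 0.0141), and those calls were lost without replicate 3 of the Rescue group, or in HCM also replicate 1 of WT (adjusted p up to 0.116). Neither was called without TMM factors (adjusted p = 0.0689 and 0.224).

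Esrp2, the paralogue of Esrp1 with largely shared targets (chr8:106853859-106864027, minus strand), differed from WT in opposite directions at the 2 times in HCM when TMM factors were used. Esrp2 had, after 24 h in HCM, 69.6, 70.1 and 61.2 CPM in WT, 38.0, 37.4 and 37.9 in PKP4-KO, and Rescue had 85.9, 85.7 and 69.9. PKP4-KO lay far below both, with a log2 difference from WT of -0.83 ± 0.12 (adjusted p = 2.68e-06 in the edgeR quasi-likelihood test). At 72 h in the same medium it had 49.5, 56.7 and 64.9 CPM in WT, 114, 96.5 and 107 in PKP4-KO, and Rescue had 69.1, 65.1 and 57.2. There PKP4-KO was above all other libraries, by 0.89 ± 0.12 in log2 against WT (adjusted p = 9.09e-07 in the edgeR quasi-likelihood test), but by 0.15 and without a call when TMM factors were left out (adjusted p = 0.362).

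In LCM the Esrp2 levels were 37.0, 41.1 and 38.9 CPM in WT, 33.3, 32.9 and 31.7 in PKP4-KO, and Rescue had 57.7, 65.3 and 60.6 after 24 h. After 72 h they were 58.1, 59.2 and 60.5 CPM in WT, 59.6, 85.4 and 74.0 in PKP4-KO, and Rescue had 106, 131 and 107. Rescue was the highest genotype in LCM at both times, without overlap. PKP4-KO differed from WT by -0.26 ± 0.12 at 24 h (adjusted p = 0.0962) and by 0.30 ± 0.12 at 72 h (adjusted p = 0.0463 in the edgeR quasi-likelihood test). The latter was lost in 5 of 6 fits without 1 library, all but replicate 1 of PKP4-KO (adjusted p up to 0.314), and turned to -0.10 without TMM factors.

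Rescue exceeded PKP4-KO in Esrp2 by 0.91 ± 0.12 and 1.09 ± 0.12 at 24 h in LCM and HCM and by 0.65 ± 0.12 at 72 h in LCM (adjusted p at most 8.56e-05 in the edgeR quasi-likelihood test). At 72 h in HCM it was lower by -0.73 ± 0.12 (adjusted p = 1.04e-05), a direction that turned to 0.44 (adjusted p = 0.00508) without TMM factors. Esrp1 behaved alike there, at -0.47 ± 0.19 (adjusted p = 0.0274) with and 0.71 (adjusted p = 0.0267) without TMM factors, and its first call was lost without replicate 1 or 3 of Rescue or 1 or 2 of PKP4-KO (adjusted p up to 0.0996). Rescue exceeded WT in Esrp2 in LCM, by 0.65 ± 0.12 at 24 h (adjusted p = 0.000192) and 0.95 ± 0.12 at 72 h (adjusted p = 4.79e-07), and by 0.27 and 0.16 in HCM without a call.

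The 5 suprabasal keratinocyte markers Krt1, Krt10, Ivl, Lor and Flg summed to 7690 to 8550 CPM in PKP4-KO at 72 h in HCM and to 997 to 1830 in PKP4-KO at 72 h in LCM, against 835 to 1050 in WT and 495 to 693 in Rescue at 72 h in HCM. Their part in the Esrp2 differences was not tested. Esrp2 overlaps Nfatc3 and 1810019D21Rik on the opposite strand, which had 19144 and 3015 counts in total over the 36 libraries, and whether the counting used the strand is not given in the sources used here. Vim and Esrp1 overlap Gm54102 and Gm26663 on the opposite strand, which are not among the counted genes. Fn1 overlaps Apol7d there, with 72 counts in total.

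**Figure D4:**
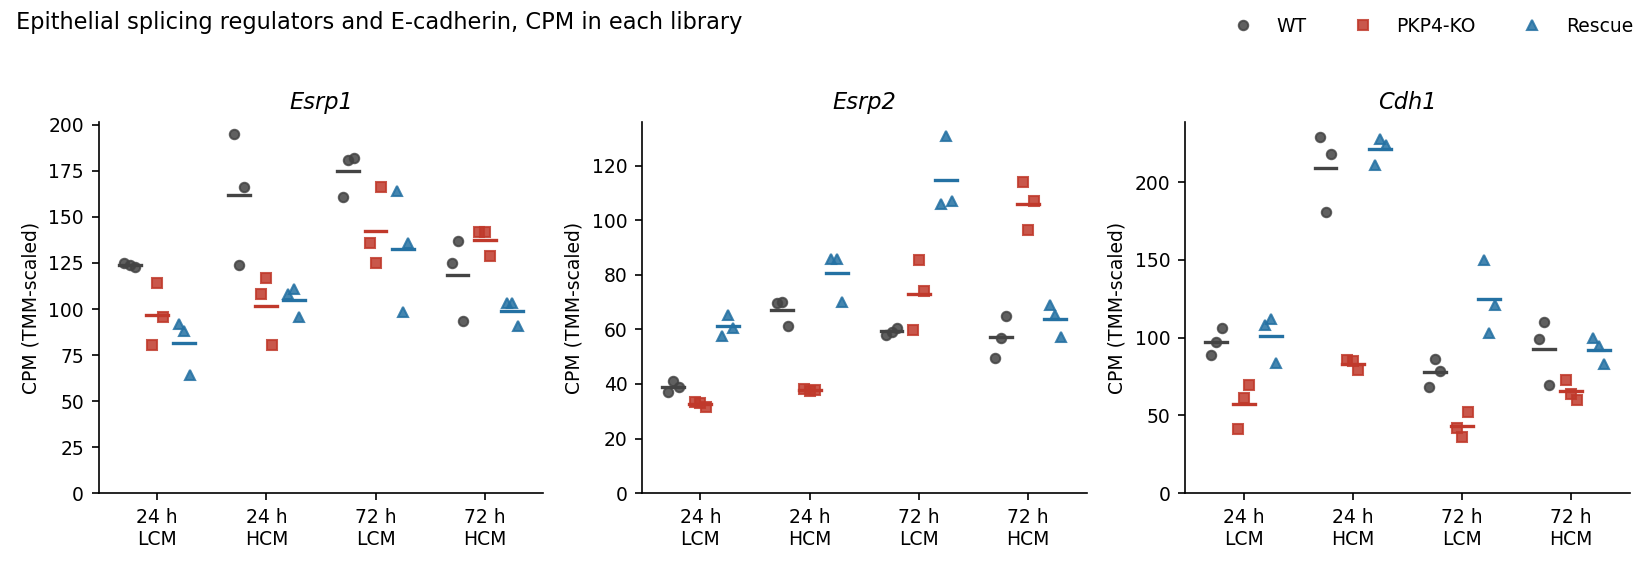
CPM of Esrp1, Esrp2 and Cdh1 in each library, by time and medium. Points are libraries of WT (circles), PKP4-KO (squares) and Rescue (triangles), and bars are means of 3. Esrp2 in PKP4-KO is lowest at 24 h and, with TMM factors, highest of the 3 genotypes at 72 h in HCM (96.5 to 114 CPM), whereas without TMM factors its direction against Rescue turns. Cdh1 is lower in PKP4-KO by means in each condition.

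Across the genotypes Rescue differed from PKP4-KO in 15 of 28 tests on the members other than Snai1, 13 higher and 2 lower, beside 45.7% of all tests over all genes. By condition 4 of 7 passed after 24 h in LCM (33.7% of all genes), 3 after 24 h in HCM, all higher (40.8%, with 21.7% higher), 3 after 72 h in LCM (41.5%) and 5 after 72 h in HCM (66.7%). Rescue differed from WT in 15 of 28 tests as well, 5 higher and 10 lower, beside 29.1% over all genes. Of these, 5 were after 24 h in LCM (24.8% of all genes), 4 after 24 h in HCM (23.2%), 3 after 72 h in LCM (32.4%) and 3 after 72 h in HCM (36.2%). Those after 24 h in LCM and after 72 h in HCM include Zeb2, which rests on few counts. Without the PKP4-KO libraries of 72 h in HCM, 10 differences between Rescue and PKP4-KO were called in the remaining conditions, against 4, 3 and 3 with these libraries (24 h LCM, 24 h HCM and 72 h LCM, each of 7 tests).

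**Figure D5:**
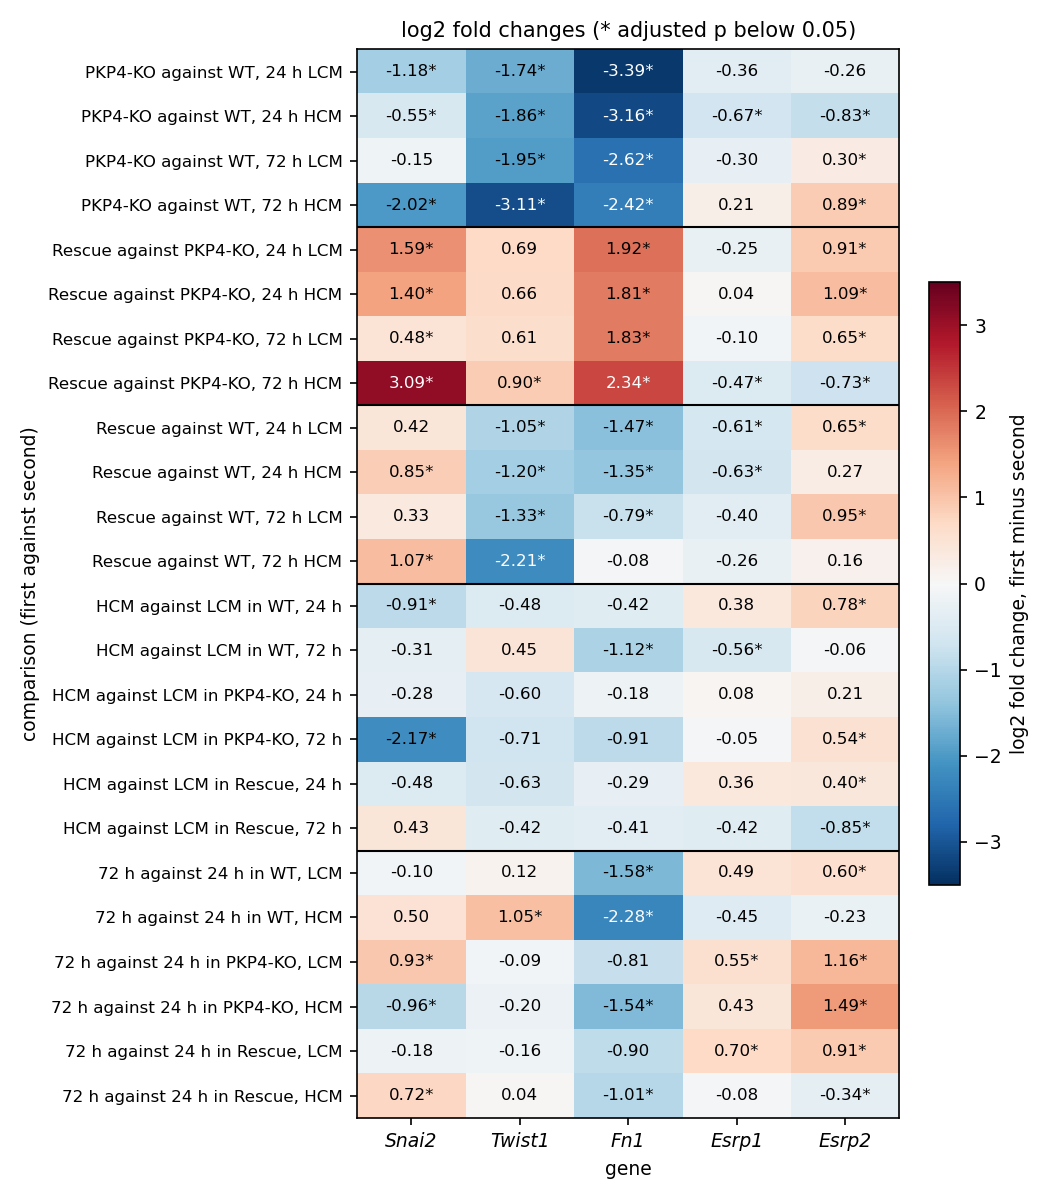
Log2 fold changes (first group minus second) of Snai2, Twist1, Fn1, Esrp1 and Esrp2 in the 12 comparisons of genotypes, the 6 of media and the 6 of times, with an asterisk for adjusted p below 0.05 in the edgeR quasi-likelihood test. Colour runs from blue (lower in the first group) to red (higher). Twist1 and Fn1 are lower in PKP4-KO than in WT in all 4 conditions, at -1.74 to -3.39, and the values of Esrp1 and Esrp2 that involve PKP4-KO at 72 h are those with TMM factors, and some of them turn sign without.

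Calcium effects were tested within each genotype. In WT 4 of 16 tests passed, beside 17.8% of all tests over all genes. After 24 h Snai2 fell by 0.91 on the log2 scale in HCM (adjusted p = 0.00147) while Esrp2 rose by 0.78 (adjusted p = 3.45e-05), where 6.48% of all genes were lower and 7.69% higher. After 72 h Fn1 was lower in HCM by -1.12 ± 0.31 (adjusted p = 0.0102), a call lost without replicate 3 of WT in HCM or replicate 2 in LCM (adjusted p up to 0.077), and Esrp1 by -0.56 ± 0.19 (adjusted p = 0.0306), lost in 4 of 6 such fits, those without replicate 1 or 3 in HCM or 2 or 3 in LCM (adjusted p up to 0.191). In PKP4-KO 2 of 16 tests passed, beside 17.7% over all genes. Both were at 72 h, with 32.6% of all genes called and 19.7% lower. Snai2 fell there by 2.17 on the log2 scale (adjusted p = 1.08e-08 in the edgeR quasi-likelihood test) and Esrp2 rose by 0.54 (adjusted p = 0.00124), the latter turning to -0.14 without TMM factors.

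At 24 h no member passed for calcium in PKP4-KO, where 2.83% of all genes did. In Rescue 2 of 16 tests passed, beside 18.4% over all genes, and both were Esrp2, at 0.40 ± 0.12 after 24 h (adjusted p = 0.0307) and -0.85 ± 0.12 after 72 h (adjusted p = 7.12e-06 in the edgeR quasi-likelihood test). The former was lost without replicate 1 or 2 in HCM or 1 or 3 in LCM (adjusted p up to 0.133). The calcium effect on Snai2 at 72 h was more negative in PKP4-KO than in WT by -1.86 ± 0.28 (adjusted p = 8.67e-05 for the interaction in the edgeR quasi-likelihood test), and it was 1 of 2 members called among 13 interaction tests, beside 4.88% over all genes.

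Time in culture changed Fn1 and Esrp2 in several groups. From 24 h to 72 h Fn1 fell by 1.58 in LCM (adjusted p = 0.000806) and by 2.28 in HCM (adjusted p = 7.32e-06) on the log2 scale in WT. In HCM it fell by 1.54 in PKP4-KO (adjusted p = 0.0032) and by 1.01 in Rescue (adjusted p = 0.0161), the last of these lost without replicate 1 or 2 of Rescue at 72 h (adjusted p up to 0.0728). The libraries of both times did not overlap in these 4 comparisons. Esrp2 rose in LCM by 0.60 in WT (adjusted p = 0.00142), 1.16 in PKP4-KO (adjusted p = 3.27e-08) and 0.91 in Rescue (adjusted p = 3.58e-06), and in HCM by 1.49 in PKP4-KO (adjusted p = 9.47e-11), all in the edgeR quasi-likelihood test. Without TMM factors the last of these was 0.42 (adjusted p = 0.00781), while the median of all genes in that comparison moved from -0.09 to -1.16. In Rescue in HCM it fell by 0.34 (adjusted p = 0.0443), which was lost in 4 of 6 fits, without replicate 2 or 3 at 72 h or 1 or 2 at 24 h (adjusted p up to 0.185).

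Snai2 changed with time in opposite directions in PKP4-KO. It rose by 0.93 in LCM (adjusted p = 0.000691) and fell by 0.96 in HCM (adjusted p = 0.000299) on the log2 scale, without overlap of the libraries, and it rose by 0.72 in Rescue in HCM (adjusted p = 0.00625 in the edgeR quasi-likelihood test). Twist1 rose in WT in HCM by 1.05 (adjusted p = 0.0102), which was lost without replicate 1 at 24 h (adjusted p = 0.0599). Esrp1 rose in LCM by 0.55 in PKP4-KO (adjusted p = 0.0268) and by 0.70 in Rescue (adjusted p = 0.0118). The former was lost without replicate 3 at 72 h or 1 or 3 at 24 h (adjusted p up to 0.14), and the latter without replicate 1 at 72 h or 3 at 24 h (adjusted p up to 0.118). In all, 4 of 16 time tests passed in WT cells, 7 in PKP4-KO cells and 5 in Rescue cells, beside 13.9%, 41% and 17.1% over all genes. The 7 include Snai1 in HCM, whose test rests on the libraries by which it was chosen.

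RNA of Cdh1, the gene of E-cadherin, was lower in PKP4-KO than in WT in all 4 conditions. On western blots the study found the levels of the adherens junction proteins it examined essentially unchanged in PKP4-KO. The exception was a minor and transient fall of p120 at 24 h after the calcium switch. By immunofluorescence it saw less E-cadherin at lateral membranes and more in the cytoplasm of PKP4-KO cells. The Cdh1 calls were not checked without single libraries or without TMM factors. Cdh1 had 88.7, 97.2 and 106 CPM in WT and 41.5, 61.4 and 69.7 in PKP4-KO after 24 h in LCM, and 229, 181 and 218 against 85.5, 84.8 and 79.1 after 24 h in HCM. The groups did not overlap at 24 h, and the log2 differences were -0.76 ± 0.18 (adjusted p = 0.00117) and -1.33 ± 0.18 (adjusted p = 5.48e-07 in the edgeR quasi-likelihood test). After 72 h they were -0.84 ± 0.18 in LCM (adjusted p = 0.000401) and -0.50 ± 0.18 in HCM (adjusted p = 0.021), where 99.0, 110 and 69.4 CPM in WT overlapped 72.8, 64.0 and 60.1 in PKP4-KO. Rescue exceeded PKP4-KO in Cdh1 in all 4 conditions, by 0.49 to 1.52 in log2 (adjusted p at most 0.0175).

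The wider group of 29 epithelial adhesion and polarity genes, to which Cdh1 belongs, was mostly lower in PKP4-KO. Of 26 tested, 17 passed as lower and 0 as higher after 24 h in LCM, and 23 as lower and 0 as higher after 24 h in HCM, with medians of -1.01 and -1.93 in log2 against 0 over all genes. After 72 h in LCM 15 were lower and 2 higher (median -0.80), and after 72 h in HCM 16 and 3 (median -0.76, all genes -0.07). Of all genes 20.6%, 22.2%, 23.8% and 29.9% were lower in these comparisons and 19.7%, 20.7%, 21.3% and 21.9% higher. Cldn4 and Cldn1, which form the barrier of tight junctions, had 12.6 ± 0.934 and 7.27 ± 0.757 CPM in PKP4-KO against 389 ± 45.5 and 170 ± 39.0 in WT after 24 h in HCM (SD, n = 3), or -4.95 ± 0.20 and -4.54 ± 0.22 in log2. Against PKP4-KO, 18, 23, 21 and 16 of these genes were higher in Rescue and 0, 0, 0 and 2 lower, in the order 24 h LCM, 24 h HCM, 72 h LCM and 72 h HCM, where 18.2%, 21.7%, 23.3% and 37.2% of all genes were higher and 15.5%, 19%, 18.3% and 29.5% lower.

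The group of 30 further mesenchymal cytoskeleton and matrix genes, of which 23 were tested, was mixed. In PKP4-KO 4 were higher and 9 lower than in WT after 24 h in LCM, 5 and 9 after 24 h in HCM, 7 and 9 after 72 h in LCM and 5 and 10 after 72 h in HCM. In these comparisons 40.2%, 42.8%, 45.1% and 51.8% of all genes were called in either direction. Ccn2, a matricellular target of mechanical signals, had 0.984 ± 0.0785 CPM in PKP4-KO against 130 ± 37.5 in WT after 24 h in HCM, and Acta2, smooth muscle actin, 0.649 ± 0.441 against 68.8 ± 14.4 (log2 differences -7.03 ± 0.46 and -6.81 ± 0.46). Fstl1, a secreted glycoprotein, went the other way at 24.3 ± 4.47 against 0.247 ± 0.236 CPM (6.51 ± 0.43, adjusted p = 6.13e-13 in the edgeR quasi-likelihood test).

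Of 16 other EMT transcription factors, 13 were tested. In PKP4-KO 4 were higher and 5 lower than in WT at 24 h in either medium, 1 and 5 after 72 h in LCM and 2 and 10 after 72 h in HCM, beside the same shares of all genes (40.2%, 42.8%, 45.1% and 51.8%). Prrx1, a homeobox factor of mesenchyme, had 3.05 ± 0.433 CPM in PKP4-KO after 24 h in HCM and 0 counts in all 3 WT libraries (adjusted p = 8.65e-06 in the edgeR quasi-likelihood test). Twist2, the paralogue of Twist1, had 3.48 ± 0.738 against 7.75 ± 1.92 CPM after 24 h in HCM and 0.63 ± 0.646 against 8.92 ± 1.63 after 72 h (log2 differences -1.15 ± 0.32 and -3.73 ± 0.42). Hmga2, an architectural chromatin factor, was lower after 72 h in HCM (-3.34 ± 0.34, adjusted p = 5.67e-09) and reached 178 ± 28.1 CPM in Rescue against 4.65 ± 1.4 in PKP4-KO.

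Of 13 epithelial factors that oppose EMT, 12 were tested. In PKP4-KO 2 were higher and 4 lower than in WT after 24 h in LCM, 3 and 7 after 24 h in HCM, 6 and 1 after 72 h in LCM and 5 and 1 after 72 h in HCM. Of all genes 19.7%, 20.7%, 21.3% and 21.9% were higher and 20.6%, 22.2%, 23.8% and 29.9% lower, and the counts at 72 h in HCM are those with TMM factors, without which the median of all genes there was -0.83. The change of these counts between times was not tested. Ovol1, a zinc-finger repressor of Zeb1 and of EMT, had 22.5 ± 2.57 CPM against 105 ± 7.24 in WT after 24 h in HCM (-2.22 ± 0.16, adjusted p = 3.59e-12) and 127 ± 8.85 against 48.9 ± 6.7 after 72 h (1.38 ± 0.16, adjusted p = 3.52e-08). Ovol1 was also among the 3 genes whose group means followed Esrp2 most closely (r = 0.962, rho = 0.951 over 12 groups), beside Gm45351 (r = 0.972) and Tgm1, a transglutaminase of the cornified envelope (r = 0.968).

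Of 21 EMT-inducing ligands, receptors and signal genes, 17 were tested, and 14 of them were lower and 0 higher in PKP4-KO after 72 h in HCM, against 3 lower and 3 higher after 24 h in HCM. Of all genes 29.9% were lower and 21.9% higher at 72 h, and 22.2% and 20.7% at 24 h, which also stand beside the counts of the next groups. Tgfbr3, a co-receptor of TGF-beta, fell in both (-1.90 ± 0.34 and -3.65 ± 0.40 in log2, adjusted p = 3.47e-05 at 24 h and 2.04e-08 at 72 h), and its group means were among the 3 closest to those of Snai2 (r = 0.946, rho = 0.958 over 12 groups). Of 19 genes for the stability and corepressors of SNAI1 protein, 5 were higher and 4 lower after 24 h in HCM and 1 and 12 after 72 h. Pak1, a kinase that phosphorylates SNAI1, had 13.8 ± 1.66 against 32.9 ± 3.24 CPM in WT after 24 h in HCM (-1.25 ± 0.14). Of 8 splicing factors tied to EMT, 2 were higher and 2 lower after 24 h in HCM, and 0 and 6 after 72 h, among them Rbfox2 at -0.78 ± 0.16 and -0.90 ± 0.16.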

How the data were processed

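The authors extracted RNA with Trizol, sequenced strand-specific poly(A) libraries as read pairs, aligned them with HISAT2 2.1.0 to mm39 extended by the transgene sequence, filtered secondary alignments with SAMtools 1.10 and counted reads per gene with featureCounts 2.0.0 on an Ensembl GRCm39 annotation. The deposited values are raw counts per gene, without normalization, for 55358 genes. The 36 libraries were grouped by genotype, medium and time as their labels state. Here, genes with low counts were removed with filterByExpr over the 12 groups, leaving 15114, TMM factors were applied, and 1 mean per group was fitted with edgeR 4.0.16 in R 4.3.3 (24 residual degrees of freedom, Benjamini-Hochberg adjustment per comparison, threshold 0.05). The method was also run on simulated counts, in which few genes changed in a single group at a fixed spread. That setting does not cover changes as wide as those of PKP4-KO at 72 h in HCM. Fold changes are log2, first group minus second. Ratios of low counts carry exact 95% intervals, and 3 counts over a group stand for 0. Alternatives were DESeq2 1.42.0, no filter, at least 10 counts in every library, no TMM factors, only the groups compared, a replicate block, and leaving out libraries, of which leaving out PKP4-KO at 72 h in HCM was chosen after seeing the data. Promoters came from GRCm39. The 10 members and all gene lists were chosen with earlier results of these data known. The text names all members, the 3 genes most alike to a member, and from each list called genes among the 4 largest changes, with Cdh1, Pkp4 and the transgene. The other cell markers summed to 0.7 to 6.67 CPM (melanocyte), 0 to 3.64 (leukocyte and Langerhans cell, Cd207 at 0), 0.581 to 5.41 (endothelial) and 7.56 to 44.3 (Merkel cell, Atoh1 at 0). Nothing before the counts was repeated. 1 list of markers of another cell type is not reported here.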

Additional observations from a re-analysis of the deposited data

Results flagged for a closer look

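The response to calcium or time differed between PKP4-KO and WT, by an interaction term in edgeR's quasi-likelihood test with adjustment over all genes, for the following members, all of which rest on PKP4-KO at 72 h in HCM except the last. For calcium at 72 h, Snai2 responded more negatively in PKP4-KO by -1.86 (adjusted p = 8.67e-05), a call kept in every fit without 1 library, and Esrp2 more positively by 0.59 (adjusted p = 0.0371), a call lost in 9 of 12 such fits, all but those without replicate 2 of PKP4-KO in either medium or replicate 3 of WT in HCM (adjusted p up to 0.131) and without TMM factors (adjusted p = 0.448). These were 2 of 13 tests, beside 4.88% over all genes. For time in HCM the difference was 1.72 for Esrp2 (adjusted p = 1.52e-08) and -1.46 for Snai2 (adjusted p = 0.000279), both kept in every fit without 1 library. It was 0.88 for Esrp1 (adjusted p = 0.0136), which was lost without replicate 1 of WT at 24 h in HCM (adjusted p = 0.0509) and came to 0.02 without TMM factors. For Twist1 it was -1.25 (adjusted p = 0.0348), lost in 8 of 12 fits without 1 library, all but those without replicate 1 of PKP4-KO at 72 h or replicate 3 of any of the other 3 groups (adjusted p up to 0.121). For time in LCM the difference was 1.03 for Snai2 (adjusted p = 0.0238), lost without replicate 1 or 3 of PKP4-KO or WT at 72 h or replicate 1 of either at 24 h (adjusted p up to 0.0691) and without TMM factors (adjusted p = 0.276). The 5 calls for time stood among 13 tests, beside 15.9% over all genes.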

How the results depend on the processing

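Counts of members called kept within 1.5 times their size under most alternatives. With libraries left out in turn they ran from 16 to 18 for PKP4-KO against WT, 13 to 17 for Rescue against PKP4-KO, 12 to 16 for Rescue against WT, 2 to 4, 2 to 3 and 1 to 3 for calcium in WT, PKP4-KO and Rescue, 4 to 6, 6 to 8 and 3 to 5 for time, and 1 to 2 and 3 to 5 for the calcium and time interactions. Calls for calcium were 4 in PKP4-KO and 1 in Rescue without TMM factors, and 1 in Rescue with no filter or with only the groups compared. Calls for time were 7 in WT with DESeq2 and 1 in Rescue without TMM factors. Without the PKP4-KO libraries of 72 h in HCM, calcium at 72 h and time in HCM could not be tested in PKP4-KO. The tests left there, calcium at 24 h and time in LCM, gave 0 and 3 calls, the same as with these libraries. The calcium interaction gave 1 call with no filter or only the groups compared, and the time interaction 3 without TMM factors.

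Directions that turned without TMM factors were Esrp1 in PKP4-KO against WT at 72 h in HCM (-0.59), Esrp2 at 72 h in LCM (-0.10), Esrp1 and Esrp2 in Rescue against PKP4-KO at 72 h in HCM (0.71 and 0.44), Esrp1 there in LCM (0.27), and Esrp2 for calcium in PKP4-KO at 72 h (-0.14). These values differ from those reported by the scaling factors alone. Without single libraries, uncalled differences of Esrp1 between Rescue and PKP4-KO ran from -0.28 to 0.08 at 72 h in LCM and from -0.10 to 0.16 at 24 h in HCM. DESeq2 kept 97 of 99 values on their side of the threshold, and the filter of 10 counts 64 of 67. No filter kept 86 of 99, and only the groups compared 85 of 97. Without TMM factors 70 of 99 were kept, while 19 were weaker and 6 turned in direction. Over the fits without 1 library, 537 of 636 values were kept and 89 were weaker. These values are a selection and not all tests. Calls gained in other tests, such as those for time in WT with DESeq2, are not among them.

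Replicate numbers did not pair the libraries, since deviations correlated at a median of 0.02 for the same and for different numbers and 9 of 36 libraries were closest to their own number. A replicate block gave 18, 14 and 14 calls for the 3 genotype comparisons, and 97 of the 99 selected values kept their side. Depth limits Cdh2, Zeb1 and Zeb2, which had at most 17 counts in any library, and the Snai1 ratios rest on at most 13 WT counts per group.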

Other observations

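The 3 genes whose group means were closest to those of Snai1, Ttc4, Yipf1 and Prpf38a, were picked by that likeness alone, so their levels are a description. The genes closest to Twist1 were Eri3 (r = 0.965), Tcf7l1, a repressor of the Wnt pathway active in basal epidermis (r = 0.961), and Esx1 (r = 0.954), and those closest to Fn1 were Arl14ep (r = 0.972), Vangl1, a planar cell polarity protein (r = 0.961), and Ptgfrn (r = 0.959), each over 12 group means that share their libraries. Within 5 Mb of Snai1, 40 of 90 tested genes were called higher and 14 lower in PKP4-KO than in WT after 24 h in HCM. Of all genes 20.7% were higher and 22.2% lower there. After 72 h in HCM the counts were 36 and 11, beside 21.9% and 29.9% of all genes. In LCM they were 40 and 9 after 24 h (19.7% and 20.6%) and 42 and 7 after 72 h (21.3% and 23.8%).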
